A study of Rattus norvegicus with 192 samples.

Results

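The comparison is of whole heart tissue taken 1 h after rats breathed phosphine with heart taken 1 h after rats breathed air. The arrays were chosen by their titles, which name the tissue, exposure and time: 4 of phosphine (PH3) and 4 of air, 8 of the 192 arrays of the series and of the 32 heart arrays. All animals were male Sprague-Dawley rats of 300 to 400 g, housed singly, with no age given in the labels. Exposure was of the whole body in a chamber, at 660 ppm for 25 min, a product of 16500 ppm×min which the submitters rank as medium, 0.71 times the median lethal product. The PH3 rats were Rat343, Rat350, Rat351 and Rat357, and the Air rats Rat345, Rat352, Rat353 and Rat354. Each array was a different animal, and all animals, controls included, received ketamine and xylazine before exsanguination. The other 24 heart arrays, taken 3, 6 and 24 h after exposure, entered the same model so that all 8 heart groups shared 1 estimate of the spread.

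Phosphine is a fumigant gas that inhibits cytochrome c oxidase, the last complex of the mitochondrial respiratory chain, and the heart, which lives on oxidative metabolism, is a known target of its poisoning. Heart muscle and its vessels answer sudden stress first through immediate early genes, which need no new protein to be switched on and mostly encode transcription factors. Circulating glucocorticoids and catecholamines, released in any acute stress, act on the same tissue through the glucocorticoid receptor and through cyclic AMP.

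The deposited values are log2 intensities, so a difference of 1 is a 2-fold change. Differences are PH3 minus Air, with their standard error (SE) from limma, and called means an adjusted p under 0.05 over all 31042 probe sets. A gene is given by its brightest probe set in the heart, which yields 13438 genes. The correlation between any 2 of the 8 arrays was between 0.9628 and 0.9921. One array stood apart: PH3 Rat357 had a 3′ minus 5′ index of the control probe sets, a sign of RNA degradation, of 0.868, against 0.214 to 0.283 in the other 7. Results that rest on it are given without it too, except where the text says they were not recomputed. Heart muscle markers were bright on every array: the mean level over 5 ventricular muscle markers lay between 10.02 and 10.73, and that over 6 atrial ones between 10.42 and 11.1, so atrial and ventricular tissue were both present. In bulk tissue, fewer cells of a type and less RNA per cell cannot be told apart.

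Promoters of 6 genes that rose are shown first, because each holds the letters of at least 1 of the response elements searched for. Capitals mark elements chosen for each gene from those of cyclic AMP, serum response factor, AP-1, metals and NF-κB. Other matches stay in lower case: 2 metal cores and 1 NF-κB site in Nr4a1, and 1 metal core in Egr1. The glucocorticoid motif ACANNNTGT is likewise unmarked, 1 match each in Crem and Cxcl1. Each window runs from 250 bases before to 50 after a RefSeq start site on GRCr8 and is written 5′ to 3′ on the gene's strand. Crem, a cyclic AMP response factor with an internal start site that yields the repressor ICER, is shown at the start listed as number 3, chr17:58985240-58985539 (plus strand), with 2 copies of the full cyclic AMP response element TGACGTCA in capitals, on either side of the start.
Crem: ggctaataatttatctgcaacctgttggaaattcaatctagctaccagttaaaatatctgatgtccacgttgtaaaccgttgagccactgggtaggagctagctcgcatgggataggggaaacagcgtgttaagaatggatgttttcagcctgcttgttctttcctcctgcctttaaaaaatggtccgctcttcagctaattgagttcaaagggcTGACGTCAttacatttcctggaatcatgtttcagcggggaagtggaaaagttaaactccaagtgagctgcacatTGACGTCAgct
Nr4a1, an orphan nuclear receptor, at chr7:134259888-134260187 (plus strand), has 4 half-sites of that element (CGTCA, the reverse complement of TGACG) in capitals.
Nr4a1: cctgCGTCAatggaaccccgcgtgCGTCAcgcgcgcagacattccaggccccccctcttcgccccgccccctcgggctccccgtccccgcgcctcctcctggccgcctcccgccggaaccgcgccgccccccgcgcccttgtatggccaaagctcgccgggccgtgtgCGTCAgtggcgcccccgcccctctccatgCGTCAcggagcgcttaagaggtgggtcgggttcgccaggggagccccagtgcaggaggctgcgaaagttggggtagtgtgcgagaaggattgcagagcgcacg
Sik1, a kinase that dampens cyclic AMP signals, at chr20:9958597-9958896 (minus strand), has 2 such half-sites in capitals.
Sik1: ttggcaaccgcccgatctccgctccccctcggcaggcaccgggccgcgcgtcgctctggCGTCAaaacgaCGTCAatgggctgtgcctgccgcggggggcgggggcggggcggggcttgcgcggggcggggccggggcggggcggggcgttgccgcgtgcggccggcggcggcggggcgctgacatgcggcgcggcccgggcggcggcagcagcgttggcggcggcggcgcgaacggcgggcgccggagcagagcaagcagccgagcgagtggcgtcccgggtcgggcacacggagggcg
Egr1, a zinc finger factor, at chr18:26736828-26737127 (plus strand), has 2 serum response elements and 2 half-sites in capitals.
Egr1: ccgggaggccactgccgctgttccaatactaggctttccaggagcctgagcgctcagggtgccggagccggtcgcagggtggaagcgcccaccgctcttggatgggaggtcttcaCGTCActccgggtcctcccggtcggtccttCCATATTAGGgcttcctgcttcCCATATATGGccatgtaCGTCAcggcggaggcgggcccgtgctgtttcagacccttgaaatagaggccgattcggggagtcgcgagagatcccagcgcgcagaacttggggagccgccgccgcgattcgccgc
Mt2A, a metallothionein that binds zinc and copper, at chr19:10838659-10838958 (minus strand), has 4 metal response element cores (TGCACNC or TGCGCNC on either strand) and 1 AP-1 site (TGACTCA) in capitals.
Mt2A: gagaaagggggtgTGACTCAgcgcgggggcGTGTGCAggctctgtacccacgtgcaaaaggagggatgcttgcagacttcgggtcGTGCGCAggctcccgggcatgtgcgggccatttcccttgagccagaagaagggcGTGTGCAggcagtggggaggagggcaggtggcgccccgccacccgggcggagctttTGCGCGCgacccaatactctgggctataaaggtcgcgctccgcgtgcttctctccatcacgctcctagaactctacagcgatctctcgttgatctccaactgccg
Cxcl1, a chemokine that draws neutrophils, at chr14:17479272-17479571 (minus strand), has an NF-κB site and 2 half-sites in capitals.
Cxcl1: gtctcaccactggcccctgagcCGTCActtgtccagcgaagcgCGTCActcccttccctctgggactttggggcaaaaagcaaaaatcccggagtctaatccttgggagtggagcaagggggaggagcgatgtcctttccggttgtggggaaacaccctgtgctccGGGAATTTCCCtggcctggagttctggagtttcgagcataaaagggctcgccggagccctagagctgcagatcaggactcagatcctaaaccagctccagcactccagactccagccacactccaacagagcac

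The motifs were searched on both strands in every promoter window of that length, taking a gene as positive if any of its windows matched. Of the 154 genes called by their brightest probe set, 124 had a window, 64 of genes that rose and 60 of genes that fell. TGACGTCA was in 7.8% of the risen genes, 5.0% of the fallen genes, 2.9% of the 11089 measured genes with a window and 2.0% of all 27457 genes with one. Its half-site TGACG, which also lies inside the full element and is too short to be rare, was in 39.1%, 26.7%, 30.2% and 23.0%. The AP-1 site (TGACTCA or TGAGTCA) was in 9.4%, 1.7%, 4.1% and 5.0%. The NF-κB site, searched by its usual consensus, was in 14.1%, 0.0%, 5.2% and 4.5%. The metal core was in 39.1%, 38.3%, 36.1% and 26.3%, and the simple glucocorticoid motif ACANNNTGT in 9.4%, 5.0%, 4.9% and 7.3%. Serum response elements were in 3.1%, 3.3%, 1.4% and 1.8%. The ATF4 motif TGATGNAA was in 4.7%, 5.0%, 2.5% and 4.2%, and the heat shock element in 1.6%, 0.0%, 0.5% and 0.8%. These shares are descriptions of letters in short windows, with no test, and a match is not a bound site.

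One hour after phosphine, 284 of 31042 probe sets were called (0.915%), 141 higher and 143 lower. By brightest probe set, 77 genes rose and 77 fell, each 0.573% of 13438. The median difference was 1.25 over the probe sets that rose and -0.85 over those that fell. Of the called probe sets, 23 were over 4-fold higher and 1 was over 4-fold lower, and 90 and 46 passed 2-fold. The largest differences were 4.64 in a second probe set of Nr4a3 and -2.11 in a second probe set of Cxcr4. Of the 154 called genes, 139 had all 4 PH3 arrays beyond all 4 Air arrays, 65 above and 74 below. Over all genes, called or not, such separation occurred upward in 2.98% and downward in 5.19%. The called probe sets spread more among PH3 rats (median SD 0.415) than among Air rats (0.179), while over all probe sets those medians were 0.238 and 0.164.

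These counts depend on which arrays inform the spread, and on how many. Each SE rests on 1 spread shared by the 8 heart groups, not on that of the groups compared alone. Where a gene varied more among the PH3 rats of 1 h, its SE can be smaller than the 8 arrays of 1 h alone would give. With the 8 arrays of 1 h alone, limma called 9 probe sets, all at an adjusted p of 0.0465: 2 of Fkbp5, 1 each of Abra, Ell2 and Socs3, 1 of Hlx, which fell, and 3 without a gene name. Leaving out PH3 Rat343, Rat350, Rat351 or Rat357 gave 85, 220, 766 and 98 calls in the model of all heart arrays, and leaving out Air Rat345, Rat352, Rat353 or Rat354 gave 131, 112, 118 and 169. Of the 54 called genes described below, 27 kept their call whichever array was left out, and the other 27 lost it without at least 1 array, as stated beside them. A heart array stands apart here if its index is over 0.7 or its median correlation with the other heart arrays under 0.95. That rule was set after the data were seen. It holds for 5 arrays, 1 of them at 1 h (PH3 Rat357) and the others at 3 and 24 h. Without the 5 heart arrays that stand apart, 11 were not called: Nr4a2, Egr2, Ccn1, Ptgs2, Cxcl1, Socs3, Nfkbiz, Il6, Trib3, Gadd45g and Fam13c. Where the group is said to be separate, all PH3 values lie beyond all Air values.

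**Figure D1:**
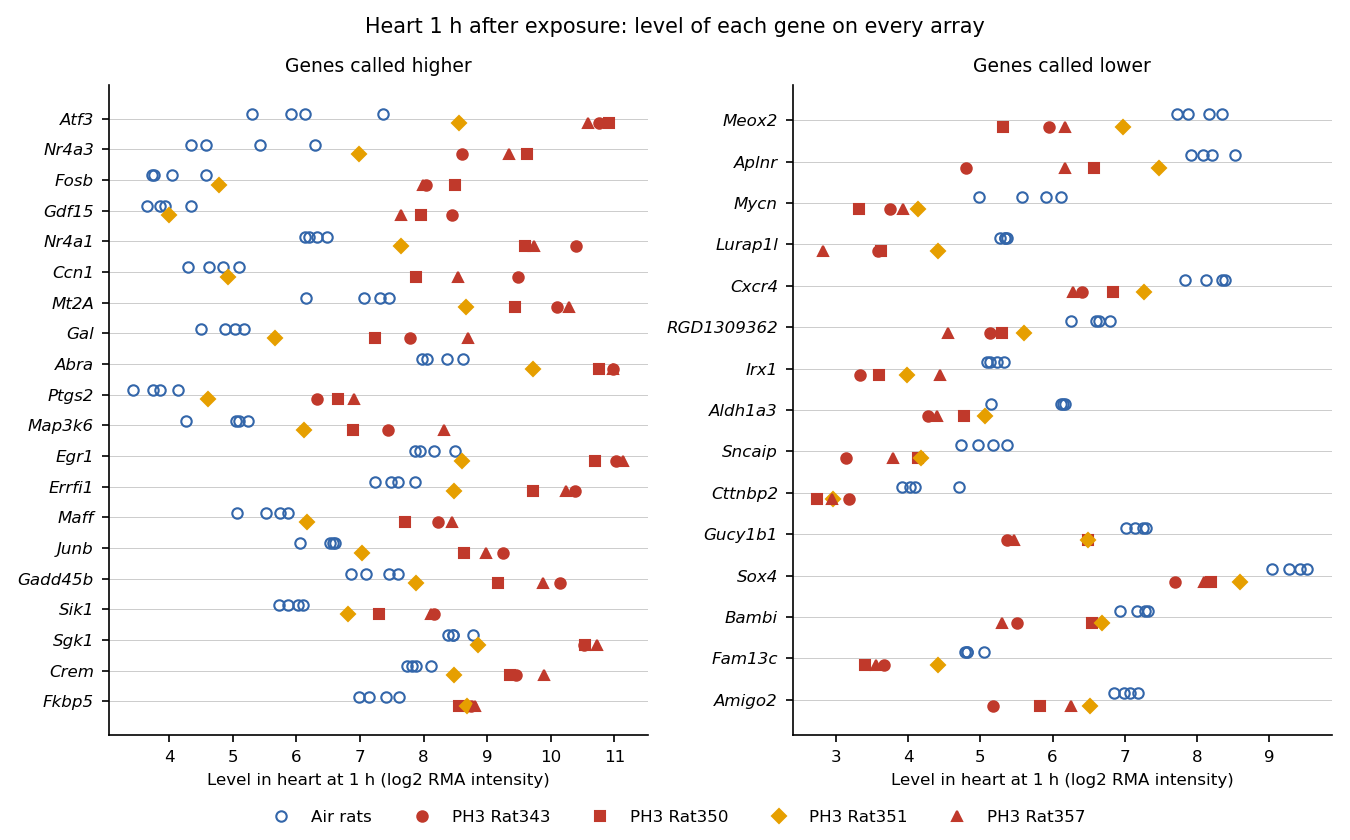
Level of 20 genes called higher (left) and 15 called lower (right) on each of the 8 heart arrays of 1 h, in log2 RMA intensity. Open circles are Air rats, filled symbols PH3 rats, with Rat351 in orange; for most of these genes Rat351 lies between the Air rats and the other 3 PH3 rats, and for Gdf15 and Ccn1 it lies among the Air rats.

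Of 25 immediate early genes measured, 12 were called higher and 0 lower, against 0.573% of all genes in each direction, 24 were positive, and the median difference was 1.32, against -0.04 over all genes. Their mean level was 8.38, 8.18, 6.74 and 8.46 in PH3 Rat343, Rat350, Rat351 and Rat357, and 6.34, 6.24, 6.42 and 6.46 in Air Rat345, Rat352, Rat353 and Rat354. Rat351 was thus the lowest of the PH3 rats and still above every Air rat in this mean. The values of genes below keep this order of rats.

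Atf3, a transcription factor induced by many cell stresses, read 10.76, 10.92, 8.56 and 10.59 after PH3 and 5.30, 6.14, 5.91 and 7.36 after Air. The groups were separate, and the rise was 16.3-fold (4.03 ± 0.545, adjusted p = 0.000178). Nr4a3, Nr4a1 and Nr4a2 form the NR4A family of orphan nuclear receptors. Nr4a3 read 8.60, 9.62, 6.98 and 9.34 against 4.58, 4.34, 5.43 and 6.29, an 11.1-fold rise (adjusted p = 0.000178). A second probe set of Nr4a3 gave 4.64 and another 1.70. Nr4a1 read 10.39, 9.60, 7.65 and 9.73 against 6.14, 6.20, 6.33 and 6.48, an 8.32-fold rise (3.06 ± 0.418, adjusted p = 0.000178). Nr4a2 read 5.98, 6.28, 5.27 and 7.31 against 4.78, 5.16, 4.84 and 5.02, a 2.40-fold rise (1.26 ± 0.266, adjusted p = 0.0161). The family's 3 members were separate between the groups.

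AP-1 is a pair of FOS and JUN family proteins. Fosb read 8.04, 8.50, 4.78 and 7.99 after PH3 and 3.76, 3.73, 4.04 and 4.57 after Air, so Rat351 was only just above the highest Air rat (9.87-fold, 3.30 ± 0.466, adjusted p = 0.000217). Junb read 9.25, 8.63, 7.03 and 8.98 against 6.6, 6.05, 6.57 and 6.52, a 4.10-fold rise (adjusted p = 0.00261). Fosl2 rose 2.37-fold (1.25 ± 0.218), from 3.97 ± 0.221 (SD, n = 4) to 5.22 ± 0.519. Maff, a small MAF protein that pairs with stress factors, read 8.22, 7.70, 6.17 and 8.44 against 5.87, 5.52, 5.74 and 5.06, a 4.24-fold rise (adjusted p = 0.00262). Csrnp1, a nuclear protein induced by AXIN1, rose 3.54-fold (1.82 ± 0.317). All 5 genes were separate between the groups.

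Egr1 and Egr2 are zinc finger factors of the EGR family. Egr1, whose promoter is printed above, read 11.03, 10.69, 8.60 and 11.14 after PH3 and 8.16, 7.94, 8.49 and 7.86 after Air (4.77-fold, 2.25 ± 0.51, adjusted p = 0.025). Egr2 read 6.86, 7.0, 4.86 and 7.46 against 4.62, 4.58, 4.60 and 4.90, so Rat351 lay within the Air range (1.87 ± 0.46, adjusted p = 0.0443; 0.056 once the 3′ index entered the model). Ccn1, a secreted matrix protein induced by growth factors and stretch, read 9.49, 7.88, 4.93 and 8.54 against 4.62, 4.30, 5.09 and 4.85, with Rat351 again among the Air rats (7.99-fold, 3.00 ± 0.697, adjusted p = 0.0305). The calls of Egr1, Egr2 and Ccn1 were each lost without any single array other than that of PH3 Rat351, with adjusted p up to 0.135, 0.212 and 0.173. Nr4a2 lost its call without Air Rat345, Air Rat353 or PH3 Rat357, with adjusted p up to 0.0889.

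Of the 13 immediate early genes that did not pass, Myc, a driver of growth, read 8.17, 7.94, 5.92 and 8.35 after PH3 and 5.69, 5.63, 5.67 and 5.73 after Air (1.91 ± 0.52, adjusted p = 0.0749). Its groups were separate, with Rat351 just above the Air rats. Zfp36, which speeds decay of cytokine RNA, had a difference of 1.38 ± 0.352 (adjusted p = 0.0542). Arc and Ier2 had 1.32 ± 0.343 (adjusted p = 0.0603) and 1.14 ± 0.309 (adjusted p = 0.0727). The list gave 8 to 9 calls without any single array other than PH3 Rat351, 19 without PH3 Rat351, and 0 with the 1 h arrays alone; its median stayed between 1.10 and 1.75 when 1 array was left out. The counts were 8 without Air Rat345, Air Rat353 or PH3 Rat357, and 9 without PH3 Rat343, PH3 Rat350, Air Rat352 or Air Rat354.

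The MAP kinase phosphatases and the Krüppel-like factors, which share much of their induction with the immediate early genes, had smaller differences. Of 7 phosphatases 0 were called, with 6 positive and a median of 0.55, and Dusp2 led at 1.20 ± 0.327 (adjusted p = 0.0757). Of 11 Krüppel-like factors 0 were called, with 8 positive and a median of 0.39, and Klf4 led at 0.87 ± 0.25 (adjusted p = 0.0945).

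**Figure D2:**
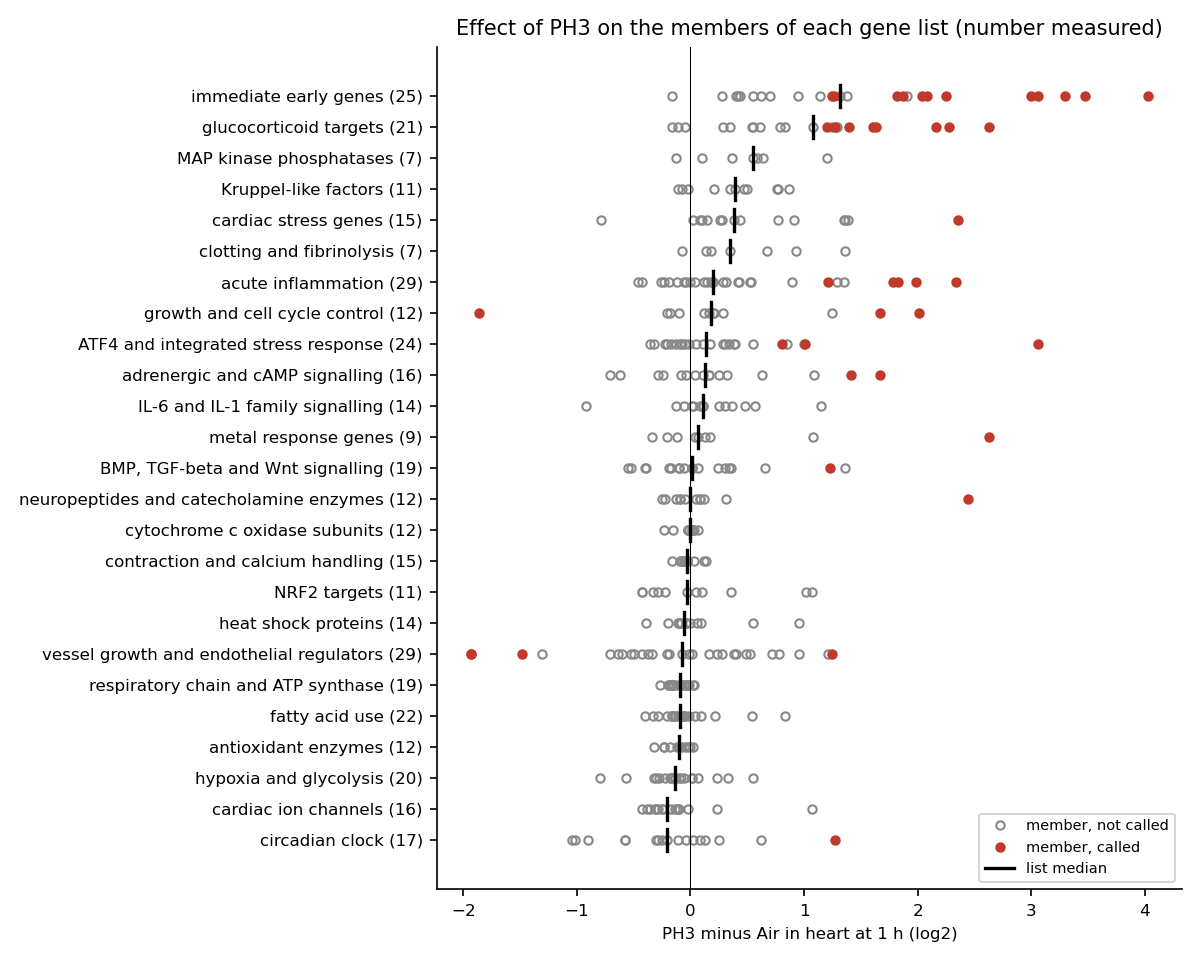
Difference between PH3 and Air (log2) in heart at 1 h for each measured member of 25 gene lists, ordered by list median (black bar), with filled red points for called members and open grey points for the others. Immediate early genes and glucocorticoid targets have the highest medians, 1.32 and 1.08, while cytochrome c oxidase subunits lie between -0.23 and 0.07.

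Of 21 targets of the glucocorticoid receptor measured, 8 were called higher and 0 lower, 18 were positive, 13 had separate groups, and the median was 1.08. Over all 13438 genes, 0.573% were called in each direction, 2.98% were separate upward and 5744 were positive, with a median of -0.04. The same shares apply to each list below. Fkbp5, a chaperone partner that restrains the receptor, read 8.74, 8.55, 8.68 and 8.80 after PH3 and 7.14, 6.99, 7.61 and 7.41 after Air, so here Rat351 was as high as the others. The rise was 2.65-fold (1.40 ± 0.146, adjusted p = 8.06e-06), and its second probe set gave 1.44 ± 0.196. Map3k6, a stress-activated kinase, read 7.44, 6.89, 6.12 and 8.32 against 5.10, 4.26, 5.05 and 5.23, a 4.87-fold rise (adjusted p = 0.0011). Errfi1, an inhibitor of EGF receptors, read 10.38, 9.72, 8.47 and 10.23 against 7.59, 7.24, 7.48 and 7.86, a 4.46-fold rise (adjusted p = 0.014). Sgk1, a kinase of ion transport, read 10.52, 10.53, 8.86 and 10.72 against 8.46, 8.46, 8.77 and 8.39, a 3.10-fold rise (adjusted p = 0.0127). All 4 genes were separate between the groups, Sgk1 by a small margin at Rat351.

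Cebpd and Cebpb, C/EBP transcription factors of the acute phase, rose 3.05-fold (1.61 ± 0.355, adjusted p = 0.0215) and 2.30-fold (1.20 ± 0.23, adjusted p = 0.00676). Cebpd was called in a second probe set (1.43) and not in another (0.19). Per1, a clock gene that glucocorticoids also induce, read 8.31, 7.35, 7.44 and 8.0 after PH3, and 7.32, 6.21, 6.31 and 6.20 after Air. Air Rat345 stood near the PH3 rats (1.27 ± 0.299, adjusted p = 0.0336). With all heart Air arrays as controls the difference of Per1 was 0.72 and not called (adjusted p = 0.0857). The calls of Per1, Cebpd, Errfi1, Sgk1 and Cebpb reached adjusted p of 0.168, 0.0915, 0.0846, 0.081 and 0.0532 when 1 array was left out. PH3 Rat343 ended all 5 calls, PH3 Rat357 all but that of Cebpb, Air Rat352 those of Per1, Cebpd and Errfi1, and Air Rat353 those of Per1 and Cebpd. Air Rat354 ended that of Per1, and Air Rat345 or PH3 Rat350 that of Cebpd.

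Members that did not pass included Nfkbia, the inhibitor of NF-κB, at 1.29 ± 0.359 (adjusted p = 0.0829), Cdkn1a, which stops the cell cycle, at 1.25 ± 0.382 (adjusted p = 0.125), and Pdk4, which spares glucose, at 0.83 ± 0.299 (adjusted p = 0.22). A second probe set of Cdkn1a was called at 1.29 ± 0.289 (adjusted p = 0.0241). The glucocorticoid list gave 3, 4 and 5 calls without PH3 Rat343, PH3 Rat357 and Air Rat352, 12 without PH3 Rat351, and 1, Fkbp5, with the 1 h arrays alone.

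Mt2A, a member of both the glucocorticoid and the metal list, read 10.10, 9.44, 8.67 and 10.29 after PH3 and 7.31, 6.15, 7.06 and 7.46 after Air. The groups were separate, and the rise was 6.20-fold (2.63 ± 0.441, adjusted p = 0.00191). Mt2A was the 1 called gene of 9 in the metal list, whose median was 0.07. Its relative Mt1 had 1.08 ± 0.332 (adjusted p = 0.129), and the zinc exporter Slc30a1 had -0.34.

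Genes of cyclic AMP signalling had 2 called members of 16, Crem and Sik1, against 0.573% of all genes called higher. The median over the list was 0.13. Crem read 9.45, 9.36, 8.47 and 9.89 after PH3 and 7.82, 7.88, 7.73 and 8.12 after Air, with separate groups (2.65-fold, 1.41 ± 0.228, adjusted p = 0.00134). Other probe sets of Crem gave 1.95, 1.13 and 1.09, all called, and 0.00, not called; which transcripts each reads was not analysed here. Sik1 read 8.16, 7.30, 6.81 and 8.12 against 5.72, 5.86, 6.02 and 6.11, also separate (3.18-fold, 1.67 ± 0.249, adjusted p = 0.000477). Pde10a, which breaks down cyclic nucleotides, and Adra1d, an α1-adrenergic receptor, did not pass at 1.09 ± 0.284 (adjusted p = 0.0595) and -0.71 ± 0.286 (adjusted p = 0.304). Another probe set of Pde10a was called at 0.94 ± 0.204 (adjusted p = 0.0186), with separate groups.

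Gal, which encodes the neuropeptide galanin, read 7.78, 7.23, 5.66 and 8.70 after PH3 and 4.88, 4.50, 5.17 and 5.04 after Air, with separate groups (5.44-fold, 2.44 ± 0.392, adjusted p = 0.00117). It was the 1 called gene of 12 neuropeptides and catecholamine enzymes, whose median was 0.00. Th, which makes catecholamines, had -0.22 and Npy, a partner peptide of sympathetic nerves, -0.25.

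Of 29 genes of acute inflammation, 5 were called higher and 0 lower, against 0.573% of all genes in each direction. In this list 21 were positive, and the median was 0.20. When only the brighter 50% of heart probe sets was tested, 12 members remained and 0 were called. The 5 called genes were not among those 12. Ptgs2, which makes prostaglandins, read 6.33, 6.66, 4.61 and 6.90 after PH3 and 3.74, 3.43, 3.85 and 4.13 after Air (5.05-fold, adjusted p = 0.025). Cxcl1, whose promoter is printed above, read 5.80, 5.76, 3.87 and 6.81 against 3.42, 3.53, 3.64 and 3.68, with Rat351 just above the Air rats (3.98-fold, adjusted p = 0.0336). Socs3, a brake on cytokine receptors, read 6.82, 6.12, 5.63 and 6.26 against 4.23, 4.43, 4.49 and 4.34 (3.56-fold, adjusted p = 0.0263). Nfkbiz, a nuclear NF-κB cofactor, read 6.21, 5.95, 4.86 and 6.97 against 4.39, 4.09, 4.42 and 3.98 (3.42-fold, adjusted p = 0.0302). These 4 were separate between the groups. A dimmer probe set of Nfkbiz gave 0.07 and was not called.

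Il6, an inflammatory cytokine, read 4.39, 4.04, 2.99 and 5.47 after PH3 and 2.99, 2.73, 3.05 and 3.27 after Air, so Rat351 lay inside the Air range (1.21 ± 0.262, adjusted p = 0.0186). The Air values of Il6 were near the lower end of all values, where a difference is compressed. The monocyte chemokine Ccl2 read 7.92, 8.70, 7.21 and 8.47 against 6.55, 7.10, 6.70 and 6.54, separate but not called (1.35 ± 0.687, adjusted p = 0.447). Other cytokines did not pass, with Il1b at -0.26, Tnf at -0.06 and Il1a at 0.29. Neutrophil markers, 7 measured, had 0 called and a median of 0.06, with a mean level of 3.78 to 4.28 in PH3 and 3.82 to 4.26 in Air.

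Each of the 5 inflammatory calls was lost when any 1 of several arrays, PH3 or Air, was left out. With the arrays of 1 h alone, Socs3 was the only gene of the list called (1.83, adjusted p = 0.0465). None of the list was called without PH3 Rat343, Air Rat345, Air Rat352, Air Rat353 or PH3 Rat357; 1, 2 and 7 genes of the list were called without PH3 Rat350, Air Rat354 and PH3 Rat351. Cxcl1, Socs3 and Nfkbiz reached an adjusted p of 0.19, 0.136 and 0.171, Ptgs2 of 0.135 and Il6 of 0.0887. None of the 5 stayed called without the 5 heart arrays that stand apart, PH3 Rat357 among them. Of 14 genes of IL-6 and IL-1 family signalling, 0 were called, with a median of 0.11, and Pim1, a kinase induced by cytokines, had 1.15 ± 0.303 (adjusted p = 0.0606).

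Gdf15, a hormone of stressed cells that lowers appetite, read 8.45, 7.95, 3.99 and 7.65 after PH3 and 3.86, 3.93, 4.34 and 3.65 after Air. In 3 PH3 rats it was far above Air, while Rat351 lay among the Air rats, so the mean 8.36-fold rise (3.06 ± 0.499, adjusted p = 0.00134) describes 3 of 4 animals. It was the largest of 3 calls among 24 targets of ATF4 and the integrated stress response, which slows protein synthesis. Of all genes, 0.573% were called higher. Trib3, a pseudokinase, rose by 1.01 ± 0.242 (adjusted p = 0.0375), and Ppp1r15a, which restarts protein synthesis, by 0.81 ± 0.148 (adjusted p = 0.00463). Other probe sets of Trib3 gave 0.83 (adjusted p = 0.0502) and 0.63 (adjusted p = 0.19), neither called. The median of the list was 0.14, and 14 of 24 were positive. The amino acid transporter Slc7a1 had 1.00 ± 0.269 (adjusted p = 0.0694), the death-linked factor Ddit3 0.55 ± 0.18 (adjusted p = 0.16), and the synthetic enzymes Asns, Psat1 and Phgdh -0.17, -0.21 and -0.36. Another probe set of Slc7a1 was called at 1.19 ± 0.257 (adjusted p = 0.0185), with separate groups, and a further one was not, at 0.31. Trib3 lost its call without any array but those of PH3 Rat350 and PH3 Rat351 (adjusted p up to 0.19), leaving 2 calls; 5 were made without PH3 Rat351.

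Among 15 cardiac stress genes, 14 were positive, the median was 0.38, and 1 was called. Abra, an actin-binding activator of serum response factor in striated muscle, read 10.98, 10.76, 9.72 and 10.98 after PH3 and 8.05, 7.97, 8.37 and 8.62 after Air (5.12-fold, 2.36 ± 0.359, adjusted p = 0.000624). Its groups were over 1 log2 unit apart at their nearest, and it was among the genes called with the 1 h arrays alone. Tnfrsf12a, a cytokine receptor of injured tissue, Xirp1, an actin-binding protein of intercalated discs, and Ccn2, a fibrosis-linked matrix protein, did not pass at 1.39 ± 0.467 (adjusted p = 0.178), 1.36 ± 0.367 (adjusted p = 0.0739) and 1.35 ± 0.361 (adjusted p = 0.0673). The natriuretic peptide genes that mark heart strain had small differences, 0.38 for Nppb (adjusted p = 0.536) and 0.02 for Nppa.

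Probe sets without a gene name in the platform annotation were among the rises. The pair below were chosen after their values were seen. The first read 9.38, 9.46, 7.52 and 8.99 after PH3 and 5.52, 5.57, 5.71 and 6.12 after Air (8.61-fold, 3.11 ± 0.664, adjusted p = 0.0177). The second read 10.94, 10.99, 9.66 and 11.37 against 7.76, 7.49, 7.93 and 8.29 (7.32-fold, 2.87 ± 0.616, adjusted p = 0.0182). Both had separate groups and were also called in the lung, at 1.29 and 1.05, and not in kidney or brain stem.

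Of 12 growth and cell cycle regulators, 2 were called higher and 1 lower, against 0.573% of all genes in each direction, with a median of 0.18. Gadd45b, a stress-induced growth brake, read 10.14, 9.17, 7.88 and 9.87 after PH3 and 7.46, 7.09, 6.85 and 7.60 after Air (4.03-fold, adjusted p = 0.00134). Its relative Gadd45g read 10.44, 9.94, 7.77 and 10.10 against 7.69, 7.79, 8.23 and 7.88, with Rat351 among the Air rats (1.67 ± 0.401, adjusted p = 0.0375), a call lost without any single array other than PH3 Rat351 (adjusted p up to 0.193). Mycn, a growth-driving factor related to Myc, fell: 3.75, 3.32, 4.14 and 3.93 against 4.98, 6.12, 5.91 and 5.58 (3.64-fold lower, adjusted p = 0.000217). Myc and Mycn thus stood on opposite sides of Air, with Myc not past the threshold.

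Further rises had no common list. Ell2, an elongation factor of RNA polymerase II, read 7.96, 8.27, 8.0 and 8.30 after PH3 and 6.87, 6.97, 6.62 and 7.14 after Air, a narrow spread in both groups (1.24 ± 0.154, adjusted p = 9.13e-05). Irs2, which carries the insulin signal, read 9.04, 8.31, 7.07 and 8.90 against 6.70, 6.48, 6.50 and 6.61 (3.38-fold, adjusted p = 0.000322). Id1, a target of BMP signals, rose by 1.23 ± 0.227 (adjusted p = 0.00529), the 1 called of 19 genes of BMP, TGF-β and Wnt signalling. Fam107a, an actin-linked stress gene, rose by 2.01 ± 0.382 (adjusted p = 0.00665, 0.0516 without PH3 Rat357). Sox17, an endothelial transcription factor, rose by 1.25 ± 0.271 (adjusted p = 0.0187), a call lost without Air Rat352, PH3 Rat343 or PH3 Rat357 (adjusted p up to 0.124). Other probe sets of Sox17 gave 1.06 (adjusted p = 0.0571) and 0.18 (adjusted p = 0.743), neither called.

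Of 29 vessel and endothelial regulators, 3 were called lower and 1 higher (Sox17), against 0.573% of all genes in each direction, and the median was -0.07. Meox2, a homeobox factor of vessel walls and endothelium, read 5.95, 5.31, 6.97 and 6.17 after PH3 and 7.87, 8.16, 8.35 and 7.72 after Air (3.80-fold lower, adjusted p = 9.13e-05). Aplnr, the receptor for apelin, read 4.80, 6.58, 7.48 and 6.17 against 7.92, 8.53, 8.21 and 8.08 (3.80-fold lower, adjusted p = 0.00376), and a dimmer second probe set gave -1.21 (adjusted p = 0.222). Cxcr4, the receptor for the chemokine Cxcl12, read 6.41, 6.84, 7.26 and 6.28 against 7.84, 8.39, 8.34 and 8.12 (2.78-fold lower, adjusted p = 0.000336), and its other probe sets gave -2.11 and -1.72, both called. The groups were separate for all 3 genes. The list gave 5 higher and 6 lower calls without PH3 Rat351, and 0 higher without PH3 Rat343, PH3 Rat357 or Air Rat352.

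Of 10 endothelial markers, 0 were called and the median was 0.11; their mean level was 9.69 in PH3 Rat357, whose index was high, and 8.87 to 9.1 in the other 7. Ligands and partners in the same list did not pass either, with Apln, the apelin gene, at -0.34 and Cxcl12 at -0.21. Esm1, an endothelial tip cell gene, had -1.31 ± 0.336 (adjusted p = 0.0559) and Flt1, a VEGF receptor, 1.21 ± 0.34 (adjusted p = 0.0861).

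Gucy1b1, a subunit of the soluble guanylate cyclase that senses nitric oxide, read 5.37, 6.49, 6.49 and 5.46 after PH3 and 7.02, 7.29, 7.25 and 7.14 after Air (2.33-fold lower, adjusted p = 0.000336), and its second probe set gave -0.94. Sox4, a developmental transcription factor, read 7.69, 8.20, 8.60 and 8.10 against 9.04, 9.42, 9.53 and 9.27 (2.25-fold lower, adjusted p = 9.13e-05). Its other probe sets disagreed: -1.55 and -1.19 were called, while 0.09 and -0.16 were not. Bambi, a decoy receptor of TGF-β signals, read 5.51, 6.55, 6.69 and 5.30 against 6.94, 7.32, 7.17 and 7.28 (2.24-fold lower, adjusted p = 0.0162). All 3 genes had separate groups.

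The rest of the 15 largest falls with separate groups are given here. Irx1, a homeobox factor, fell by 1.36 on the log2 scale, Aldh1a3, which makes retinoic acid, by 1.27, Amigo2, an adhesion protein, by 1.08, and Lurap1l, RGD1309362, Sncaip, Cttnbp2 and Fam13c by 1.72, 1.42, 1.25, 1.23 and 1.11. A second probe set of Irx1 gave 0.24 and was not called. Cttnbp2 read 3.18, 2.74, 2.96 and 2.94 after PH3, near the lower end of all values, where a difference is compressed. When 1 array was left out, the adjusted p reached 0.175 for Lurap1l, 0.167 for Fam13c, 0.156 for Amigo2, 0.118 for RGD1309362, 0.114 for Bambi, 0.0819 for Cttnbp2, 0.0782 for Sncaip, 0.0587 for Irx1 and 0.0532 for Aldh1a3. Fam13c was also not called with the 3′ index as a covariate (adjusted p = 0.056) or over the mean of its probe sets (-0.65, adjusted p = 0.148). Lurap1l and Fam13c were lost without any array but that of PH3 Rat351, and Amigo2 without any but those of PH3 Rat351 and Rat357. PH3 Rat343 ended the calls of Irx1 and Aldh1a3, it or Air Rat345 that of Sncaip, and Air Rat353 or PH3 Rat357 that of Cttnbp2. Bambi and RGD1309362 were lost without any array but those of PH3 Rat350, PH3 Rat351 and Air Rat345.

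Genes of the machinery that phosphine inhibits had differences near 0. Of 12 cytochrome c oxidase subunits, 0 were called, with a median of 0.00 and a range from -0.23 (Cox4i2, a lung-type subunit) to 0.07 (Cox8b). Of 19 other respiratory chain and ATP synthase genes, 0 were called and 17 were negative, with a median of -0.09 and a range from -0.27 (Sdhc) to 0.03. Glycolysis and hypoxia genes, 20 measured, had a median of -0.14 with 0 called, and the largest difference was that of Ankrd37 (-0.80 ± 0.212, adjusted p = 0.0648). Of 22 genes of fatty acid use, 0 were called (median -0.09). Over all genes 7694 were negative and 5744 positive, so a small negative median was common.

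Protection against oxidants and misfolded protein likewise gave 0 calls. Antioxidant enzymes (12, median -0.10) ranged from -0.32 to 0.02. Of 11 NRF2 targets (median -0.03), Hmox1, which breaks down heme, and Srxn1, which repairs peroxiredoxins, had 1.02 ± 0.361 (adjusted p = 0.207) and 1.07 ± 0.339 (adjusted p = 0.143). Of 14 heat shock genes (median -0.06), Hspa1a, the inducible HSP70, read 9.17, 10.30, 8.66 and 9.03 after PH3 and 7.75, 8.66, 8.35 and 8.53 after Air (adjusted p = 0.175), with PH3 Rat351 and Air Rat352 level at 8.66. Limma's 0 calls here are at 4 against 4 rats, and the count of all probe sets at an unadjusted p under 0.05 was 3682.

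Contraction and calcium handling genes (15, median -0.03, range -0.16 to 0.14) and cardiac ion channels (16, median -0.21) gave 0 calls. Kcna5, an atrial potassium channel, had 1.07 ± 0.434 (adjusted p = 0.31). Of 17 clock genes 1, Per1, was called, and the output genes Dbp and Hlf had -1.04 ± 0.443 and -1.02 ± 0.418 (adjusted p = 0.337 and 0.312). Of 7 clotting and fibrinolysis genes 0 were called (median 0.35), with Plaur, the urokinase receptor, at 1.36 ± 0.388 (adjusted p = 0.0929). Inhbb, an activin subunit of the BMP and TGF-β list, had 1.36 ± 0.423 (adjusted p = 0.131).

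Markers of other cell types had 0 calls in the 16 lists with a measured member. Red cell markers were higher in all 7 measured genes, with a median of 0.29, and their mean level ran from 5.57 to 6.19 in PH3 and from 4.89 to 5.96 in Air, so the groups overlapped; Ahsp, a globin chaperone, had 1.15 (adjusted p = 0.244). Fibroblast markers were negative in 10 of 10, with a median of -0.17, and their mean level ran from 9.63 to 10.08 in PH3 and from 9.9 to 10.23 in Air. Brown fat varied between animals of both groups: Ucp1, its defining gene, read 11.41, 2.97, 9.58 and 3.96 after PH3 and 9.61, 3.29, 10.43 and 11.45 after Air. Nerve markers had a median of -0.44 and were highest in Air Rat353 (mean level 5.37, against 4.16 to 4.87 elsewhere). Lung epithelium markers stayed at a mean level of 3.81 to 4.17 on all arrays. The part of red cells, fibroblasts and fat in the results above was not tested.

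Of the 141 probe sets that rose at 1 h, 105 were still positive at 3 h, with a median of 0.14, and 67 and 75 at 6 and 24 h, with medians of -0.01 and 0.02. Of the 143 that fell, 102 were negative at 3 h (median -0.11), 76 at 6 h (-0.02) and 24 at 24 h, where their median was 0.17. Arrays that stand apart are included at these times. The index was 0.923 in PH3 Rat368 and 0.842 in Air Rat370 at 3 h, and 0.747 in PH3 Rat341 at 24 h. Air Rat340 at 24 h had a median correlation of 0.9405 with the other heart arrays. Differences at 3 and 24 h were not recomputed without them. The difference at 1 h was itself tested against the mean difference of 3, 6 and 24 h, and 123 probe sets were called (0.396%), of which 108 were among the 284. The count of 123 became 180 without the heart arrays that stand apart. It was 37, 101, 460 and 45 without PH3 Rat343, Rat350, Rat351 or Rat357, and 77, 55, 66 and 73 without Air Rat345, Rat352, Rat353 or Rat354. Of the lists, 8 of 25 immediate early genes and 5 of 21 glucocorticoid targets differed from later times.

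The genes with the smallest p in that contrast were 4 that fell and 2 that rose. Meox2 differed from later times by -1.99 ± 0.282 (adjusted p = 0.000629), with -0.12, -0.08 and 0.39 at 3, 6 and 24 h. Cxcr4, Sox4 and Gucy1b1 differed by -1.76, -1.39 and -1.38, and their differences at 24 h were 0.53, 0.48 and 0.34, none of them called. Ell2 and Fkbp5 differed by 1.18 and 1.16. Fkbp5 still had 0.76 at 3 h and 0.37 at 6 h, and its second probe set was called at 3 h (1.22 ± 0.196, adjusted p = 0.023). Fosb was at 0.07 by 3 h and Gdf15 at -0.37, while Atf3, Nr4a3, Gal and Mt2A had 1.48, 1.56, 1.67 and 1.47 at 3 h, not called. Mt2A alone of these was over 1 at 6 h, with 1.14.

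**Figure D3:**
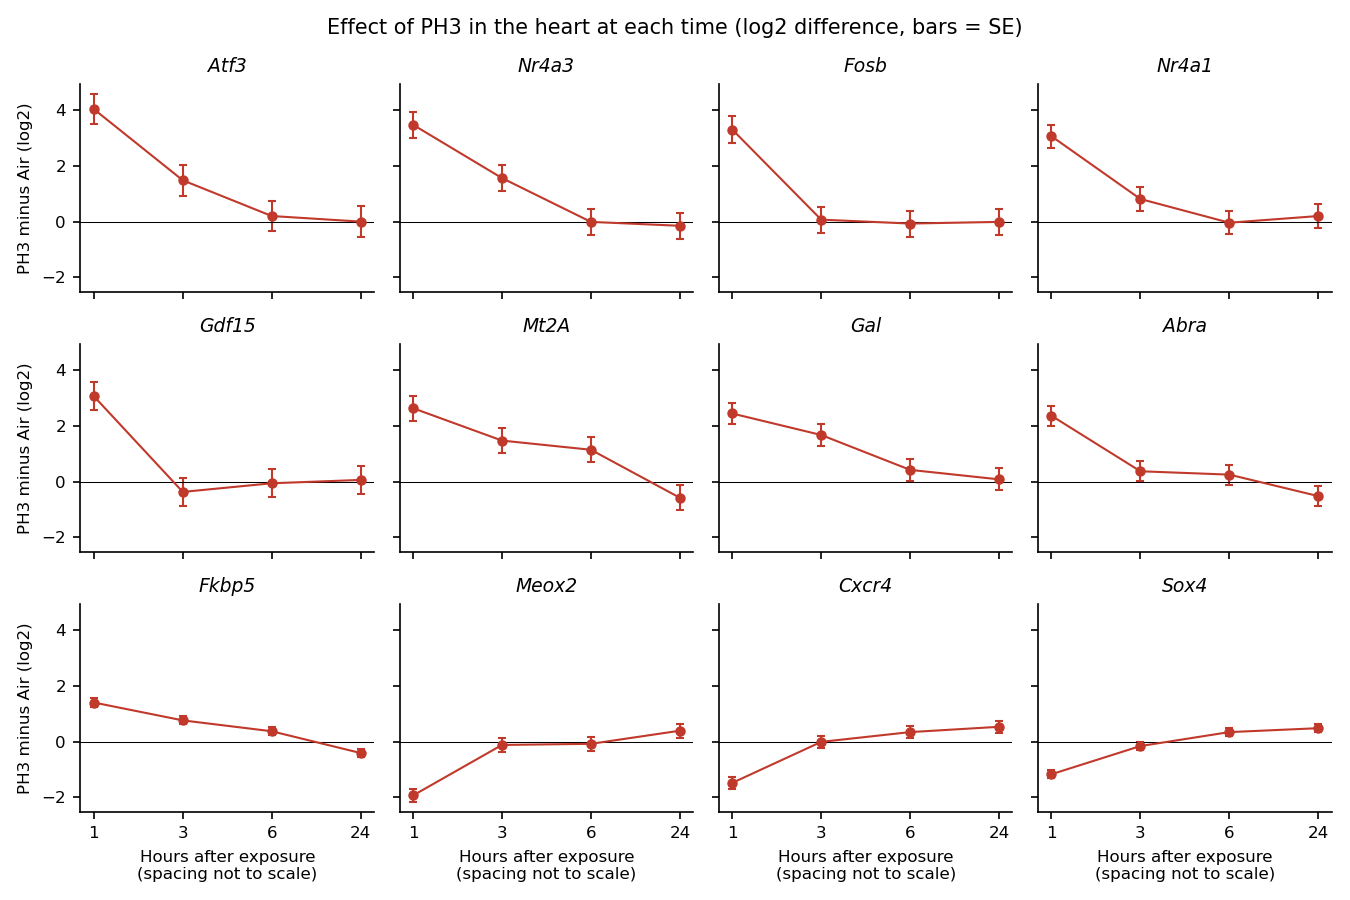
Difference between PH3 and Air (log2, bars are SE) in the heart 1, 3, 6 and 24 h after exposure for 12 genes, with 4 rats in each group at each time. Fosb and Gdf15 are near 0 by 3 h, Atf3, Nr4a3, Gal and Mt2A lie between, and Meox2, Cxcr4 and Sox4 are at or above 0 by 24 h.

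The same 8 rats gave kidney, lung and brain stem arrays at 1 h, so the heart's response was set beside theirs. Of the 284 probe sets called in the heart, 43 rises and 20 falls were called in the same direction in the kidney, 22.2% of the heart's calls and 8.6% of the kidney's 729. In the lung 69 and 48 were, 41.2% of the heart's calls and 8.9% of the lung's 1317, and in the brain stem 13 and 4, 6.0% and 17.9% of 95. Opposite calls were 0 in kidney, 0 in lung and 1 in brain stem. Of the 25 immediate early genes, 12 were called higher in heart, 10 in kidney, 7 in lung and 0 in brain stem, where 0.573%, 1.57%, 2.72% and 0.231% of all genes were. Of the 21 glucocorticoid targets the counts were 8, 11, 13 and 11. Inflammatory genes gave 5 rises in heart, 1 in kidney, 2 in lung and 1 in brain stem, and Ccl2, at 1.35 in heart, was called lower in kidney (-1.61) and lung (-1.31).

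Side by side, Fosb, Atf3, Nr4a1 and Gdf15 had 3.49, 3.39, 2.76 and 2.83 in kidney, near their heart values, and 0.47, -0.14, 0.57 and 0.04 in brain stem, not called there. Junb, Egr1, Ccn1, Ptgs2, Cxcl1, Socs3, Nfkbiz, Il6, Trib3, Irs2, Mycn and Gucy1b1 were called in the heart and in none of the other 3 tissues, which is not by itself a test of a difference. Abra had 2.49 in lung, 0.24 in kidney and 0.01 in brain stem, and Gal 1.97 in lung, -0.90 in kidney and -0.33 in brain stem. Fkbp5 was called in all 4 tissues, with 1.16, 2.38 and 1.17 in kidney, lung and brain stem. Meox2 had -1.15 in lung, -0.15 in kidney and 0.03 in brain stem, and Cxcr4 -0.68 in lung, 0.26 in kidney and -1.28 in brain stem.

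**Figure D4:**
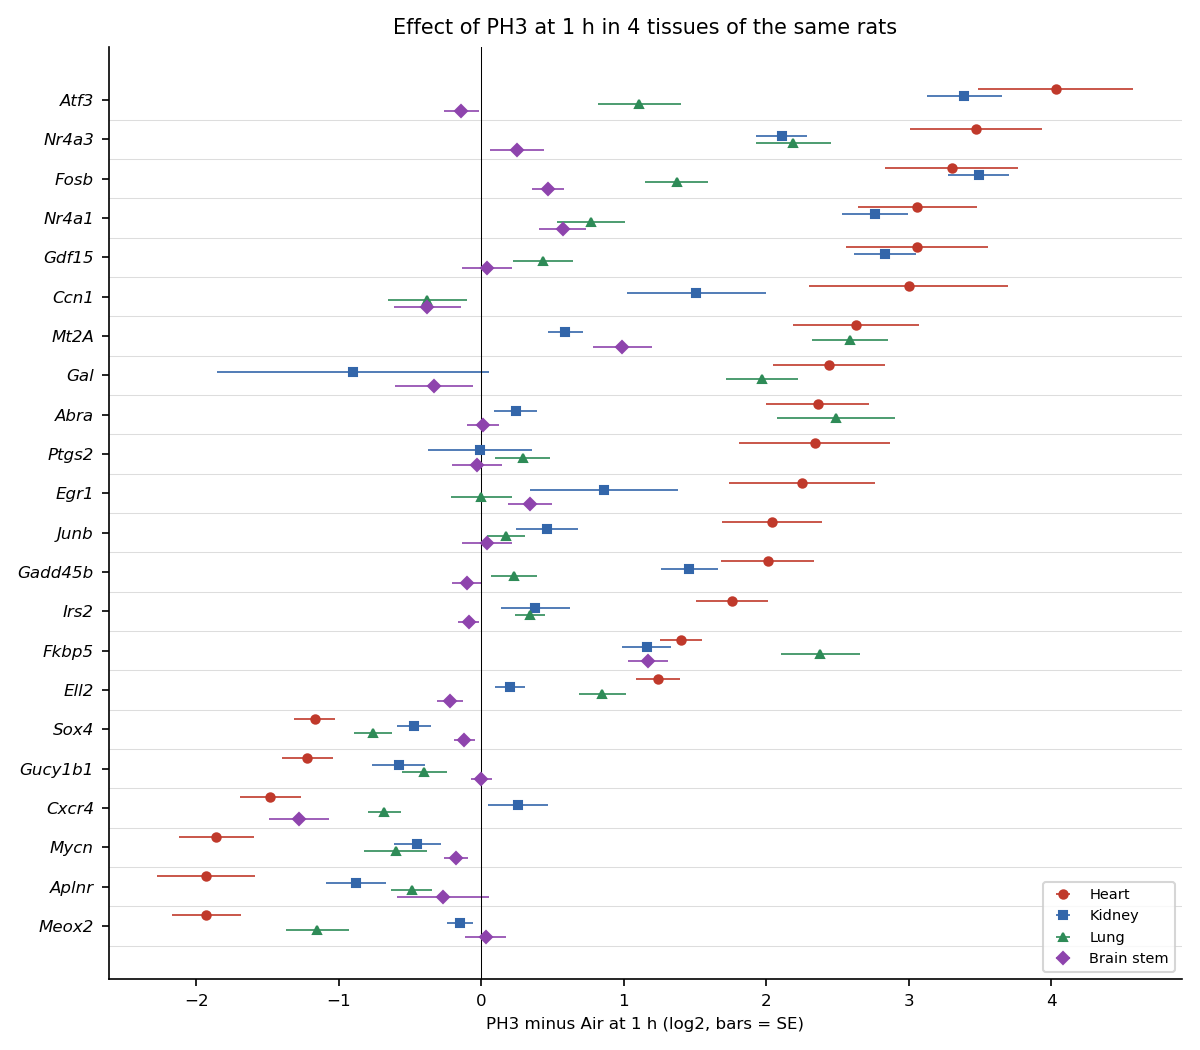
Difference between PH3 and Air at 1 h (log2, bars are SE) in heart, kidney, lung and brain stem for 22 genes, from the same rats, 4 in each group. Atf3, Fosb, Nr4a1 and Gdf15 are near each other in heart and kidney, Abra and Mt2A in heart and lung, and of these tissues Irs2 and Ptgs2 were called in heart alone, with no test of the difference implied.

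Differences between tissues were tested directly. The heart's difference departed from the kidney's in 76 probe sets (0.245%), from the lung's in 108 (0.348%) and from the brain stem's in 127 (0.409%). Because both tissues came from the same animals, the test was repeated on differences within each rat, which leaves 8 values, and it then called 8, 0 and 2, with 2784, 3604 and 3683 at an unadjusted p under 0.05. Named calls of that within-rat test were Abra (2.12, adjusted p = 0.0494), Ccl2 (2.96, adjusted p = 0.0477), Igfbp1 (-1.69) and Rprml (1.58) against kidney and Ell2 (1.46, adjusted p = 0.0348) against brain stem; Igfbp1 and Rprml were chosen after their values were seen. In the first test, heart minus brain stem was 4.17 for Atf3 (adjusted p = 3.11e-05), 1.85 for Irs2 and 1.46 for Ell2, and -1.96 for Meox2, -1.22 for Gucy1b1 and -1.05 for Sox4. With the rat as a pair, the adjusted p was 0.0719 for Atf3 and 0.112 to 0.152 for Irs2, Meox2, Gucy1b1 and Sox4.

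Against kidney, Meox2, Cxcr4, Rin2 and Dnajb3 had -1.77, -1.74, -1.08 and -1.65, and Hoxd10 and Ell2 1.21 and 1.04. Rin2, Dnajb3 and Hoxd10 were called in the kidney (0.80, 1.75 and -0.91) and not in the heart (-0.28, 0.10 and 0.30). Against lung, the 6 named genes were Spns2 (1.97), Irx1 (-1.99), Tmem26 (-1.85), Mtcl1 (-1.64), Ret (-1.61) and Fam117a (-1.01). Irx1 was called in the heart and not the lung, and the other 5 in the lung and not the heart. All 12 had a within-rat adjusted p between 0.0857 and 0.17. Leaving out both tissues of PH3 Rat343, Rat350, Rat351 or Rat357 gave 12, 49, 234 and 26 calls against kidney, 10, 66, 319 and 33 against lung, and 35, 116, 418 and 33 against brain stem. Leaving out Air Rat345, Rat352, Rat353 or Rat354 gave 27, 41, 29 and 39, then 49, 35, 28 and 46, then 61, 46, 54 and 91.

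Taking each called probe set's distance from the Air mean in the direction of its call, the median was 1.16, 0.96, 0.50 and 1.23 in PH3 Rat343, Rat350, Rat351 and Rat357, and between -0.05 and 0.04 in the Air rats. Rat351 was nearest to Air for 232 of 284 probe sets (81.7%). It was nearest for all 12 called immediate early genes, with a median of 0.56 against 2.46 to 2.96 in the other 3, for all 5 inflammatory genes (0.64 against 1.75 to 2.75) and for 6 of 8 glucocorticoid targets (0.93 against 1.90 to 2.0). The calls were made with this rat in the group, so these values describe them and test nothing.

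The same animal was nearest to Air for 53.2% of the kidney's called probe sets, 57.6% of the lung's and 65.3% of the brain stem's. Its medians there were 0.43, 0.40 and 0.48, against 0.58 to 0.68, 0.54 to 0.64 and 0.63 to 0.86 in the other 3. Its heart array had an index of 0.234, inside the range of the other arrays. What dose each animal took up is not given in the sources used here. PH3 Rat357, whose array had the high index, had the largest median for rises (1.75) and not for falls (-0.93), where Rat343 had -1.04.

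**Figure D5:**
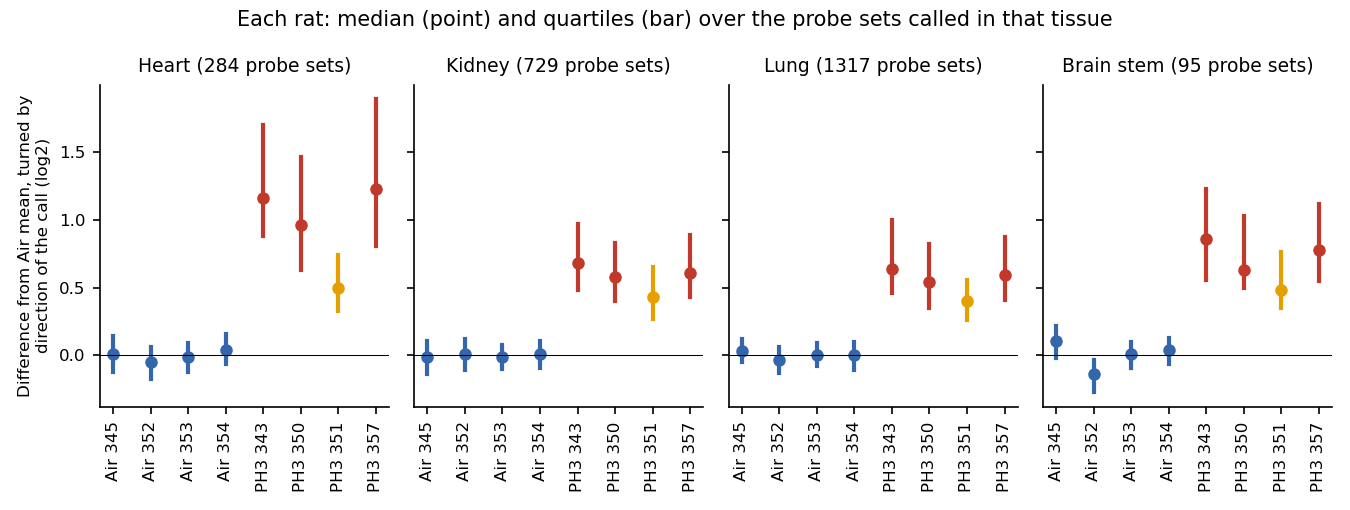
For heart, kidney, lung and brain stem at 1 h, the median (point) and quartiles (bar) over the probe sets called in that tissue of each rat's distance from the Air mean, in log2 units and turned by the direction of the call. PH3 Rat351, in orange, has the lowest median of the 4 PH3 rats in every tissue shown, 0.50 in heart, and the Air rats lie near 0.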

How the data were processed

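RNA of flash-frozen, cryopulverized heart was amplified and biotin-labelled with a 3′ in vitro transcription kit and read on Affymetrix rat arrays, per the labels' protocols. The deposited log2 values are RMA-normalized intensities that the authors made in Partek, per the submitters' processing notes; no version is named there, nor which arrays were normalized together. RMA forces arrays onto 1 distribution, so differences are relative within the array. Values of the arrays used ran from 2.15 to 14.14.

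After 97 control probe sets were left out, limma 3.58.1 (R 4.3.3) fitted 31042 probe sets on 32 heart arrays with a coefficient for each of 8 groups, and the p-values of its two-sided moderated tests were corrected by Benjamini and Hochberg's method across every probe set tested, with calls at an adjusted p under 0.05. The platform annotation names 1 gene for 19063 probe sets, several for 572 and none for 11407. A gene is given by its brightest probe set over the heart arrays. Differences between tissues were limma interaction contrasts over both tissues' arrays. Same-numbered samples of different tissues came from the same rat, so these tests were repeated on within-rat differences. The deviations of a rat's heart array and its other tissue correlated at -0.103 to 0.181 for kidney, 0.045 to 0.2 for lung and 0.019 to 0.229 for brain stem. Within the heart, no rat number is shared between groups. The number of arrays, 4 in each group, limits the precision. Replicates are separate animals.

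The genes named are the 15 largest rises and the 15 largest falls among called genes with separate groups, up to 8 called and 4 other members of each list, and the 6 genes with the smallest p in each contrast; Nr4a2, Egr2, Csrnp1, Fosl2, Il1a, Il1b, Tnf, Asns, Psat1, Phgdh, Nppa, Nppb, Apln, Cxcl12, Hlx, Igfbp1, Rprml, Dach1, Dancr, the zinc finger genes and the unnamed probe sets fall outside that rule and were chosen after their values were seen. The 25 gene lists and 17 marker lists, and the comparison itself, were chosen with earlier results of these data known. No set test was run. The fit was tested on simulated data in which each probe set had the same spread in every heart group. That test could not show the effect of a wider spread among the PH3 rats. The alternatives were other sets of arrays, array medians, brighter probe sets, trend and robust variance, array weights, the 3′ index, all Air arrays as controls, gene means, the rat as a block and leaving out each array. Python 3.11.15 with pandas 2.3.3, numpy 2.4.6 and matplotlib 3.10.9 made the tables, motif counts and figures. Promoter windows are RefSeq's on GRCr8.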

Additional observations from a re-analysis of the deposited data

Results flagged for a closer look

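In 174 sets of 4 values, the highest or lowest was tested against the others by Dixon's criterion, and 15 sets passed it (8.6%). The sets are genes and array measures, all read on the same PH3 and Air rats. The genes were largely picked from these data, and many moved together, so the sets are not independent. Chance gives about 5%, or 1 in 20, for independent sets, so the share of 8.6% cannot be judged against it. PH3 Rat351 was the low value for Atf3 at 8.56, Fosb at 4.78, Sgk1 at 8.86, Myc at 5.92, Xirp1 at 8.67, Ccn2 at 10.70 and Nppb at 11.72. Among Air rats, single values stood off for Junb (6.05) and Adra1d (7.01) in Rat352, Egr2 (4.90) and Fam13c (5.05) in Rat354, Per1 (7.32) in Rat345, and Aldh1a3 (5.15) and Ddit3 (8.54) in Rat353. The 3′ index of PH3 Rat357 was 0.868. What set these arrays apart was not tested.

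The difference between PH3 and Air at 1 h departed from that of the later times in 123 probe sets. Among named genes it was lower at 1 h for Meox2 (-1.99), Cxcr4 (-1.76), Sox4 (-1.39) and Gucy1b1 (-1.38), and higher for Ell2 (1.18) and Fkbp5 (1.16).

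Heart departed from kidney in 76 probe sets, from lung in 108 and from brain stem in 127. Heart minus kidney was -1.77 for Meox2, -1.74 for Cxcr4, -1.65 for Dnajb3, -1.08 for Rin2, 1.21 for Hoxd10 and 1.04 for Ell2. Heart minus lung was -1.99 for Irx1, -1.85 for Tmem26, -1.64 for Mtcl1, -1.61 for Ret, -1.01 for Fam117a and 1.97 for Spns2. Heart minus brain stem was 4.17 for Atf3, 1.85 for Irs2, 1.46 for Ell2, -1.96 for Meox2, -1.22 for Gucy1b1 and -1.05 for Sox4. Of these 18 values, that of Ell2 against brain stem was also called on differences within each rat (adjusted p = 0.0348 by limma).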

How the results depend on the processing

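The count of 284 called probe sets at 1 h became 9 with the 8 arrays of 1 h alone, 757 with array weights, 1313 with all heart Air arrays as controls and 733 with all tissues and the rat as a replicate block, and ran from 85 to 766 when 1 array was left out. The first of these has fewer arrays and takes the spread from the 1 h groups alone. The part of each, and the cause of the others, was not tested. Subtracting array medians gave 324 calls, 205 higher and 119 lower, so the split of directions depended on centring, and the brighter 50% of probe sets gave 124 higher and 197 lower. Of the 54 called genes described, 4 stayed called with the 1 h arrays alone, 43 without the arrays that stand apart, and 30 to 54 when 1 array was left out, and all 54 kept their direction in every alternative that tested them. The 123 departures from later times became 435 with array weights, 180 without the arrays that stand apart and 37 to 460 when 1 array was left out. With the rat as a pair, departures from kidney, lung and brain stem numbered 8, 0 and 2 in place of 76, 108 and 127, and leaving out 1 rat gave 12 to 234, 10 to 319 and 33 to 418. Of 31 genes checked among those described as not called, 24 were called with all Air arrays as controls and 21 without PH3 Rat351. The text gives further genes as not called that these counts leave out. The arrays number 4 in each group, levels near the lowest values are compressed, and whether the array of Rat357 carried degraded RNA into single results was not tested beyond leaving it out.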

Other observations

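Genes with a zinc finger symbol (Zfp, Znf or Zbtb), a set chosen after the values were seen and given with no test, made up 217 of the 13438 genes (1.61%). Of the 77 genes that rose, 1 was among them (1.3%), Zbtb2 at 0.91. Of the 77 that fell, 10 were (13%), including Zfp346 at -1.01, Znf846 at -0.97, Zfp46 at -0.94 and Zbtb5 at -0.85. These shares were not recomputed with an array left out. Over all probe sets, 143 were called lower with all heart arrays, 52 without PH3 Rat357 and 39 without PH3 Rat343. Most proteins with such symbols bind DNA.

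At 24 h limma called 2 probe sets in the heart: Dancr, a long noncoding RNA, at 1.06 (adjusted p = 0.0296), and an unnamed probe set at 0.98 (adjusted p = 0.00567), which had -0.94 at 1 h. At 3 h Dach1, a developmental repressor, was called lower at -1.13 ± 0.185 (adjusted p = 0.023). The 3 h and 24 h groups held arrays that stand apart, and these calls were not repeated without them. At 6 h limma called 0, with 982 probe sets at an unadjusted p under 0.05.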
